A study of Homo sapiens with 12 samples.

Results

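The genes described here are the ligands of the EGFR family of receptor tyrosine kinases and the 2 principal membrane proteases that release them, followed in PC9 cells through erlotinib treatment and in a TDP1 knockout line. They were chosen by name: the 8 ligand genes AREG, EREG, TGFA, HBEGF, BTC, EPGN, EGF and NRG1, and the 2 sheddase genes ADAM10 and ADAM17. These are 10 of the 62754 genes in the deposited table. Of the 10, 9 had enough counts to be tested, together with 17115 genes in all. EPGN did not pass the filter on low counts, its deposited counts lying at 2 or under in each of the 12 libraries.

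PC9 is a human lung adenocarcinoma cell line that depends on a mutant EGFR, and erlotinib is an inhibitor of the EGFR kinase. RNA sequencing was done on 4 groups of 3 cultures, all grown in serum-containing medium from a subclonal PC9 line and all placed in 1 batch by the labels. Untreated WT cells were wild type for TDP1, a repair enzyme that removes trapped topoisomerase from DNA ends, and received no drug. DTC (drug-tolerant cells) were TDP1 wild-type cells kept in 1 µM erlotinib for 7 days, and DTEC (drug-tolerant expanded cells) were wild-type cells kept in that dose for 28 days. KO cells carried a TDP1 knockout, came from the single line KO2 and received no drug. The 3 cultures of a group came from a common flask and were then grown apart, so p-values measure the spread between such cultures and not between independently derived lines. KO2 is 1 knockout line.

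The ligands of this family are made as membrane-anchored precursors that become soluble once their extracellular part is cut off at the cell surface. ADAM17 is the main protease for most of these precursors, ADAM10 cuts those of EGF and betacellulin, and both enzymes also release many other membrane proteins. EGF, TGF-α, amphiregulin and epigen bind EGFR, whereas HB-EGF, betacellulin and epiregulin bind both EGFR and ERBB4, and neuregulin 1 binds ERBB3 and ERBB4. Erlotinib acts inside the cell on the kinase domain and does not compete with ligand for the receptor.

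Libraries held 25572691 to 38373679 estimated counts. Library pairs within a group were compared by chi-square per degree of freedom over all genes with counts. DTC replicate 1 gave 115.7 against replicate 2 and 72.1 against replicate 3. DTC replicates 2 and 3 gave 17.1, and pairs in the other groups ran from 3.75 to 48.8. DTC replicate 1 thus differed across many genes, and its part in the DTC values below was not tested beyond leaving it out. Levels are given as CPM, counts divided by TMM-scaled library totals, and 3 counts, taken as the floor of detection, corresponded to 0.0824 to 0.115 CPM. TDP1 had 26.3 ± 1.60 CPM (SD, n = 3, as for all means below) in untreated WT against 10.8 ± 0.647 CPM in KO, so part of its RNA remained in the knockout line. The wild-type DTC also had less TDP1 RNA, 13.96 ± 1.55 CPM (log2 fold change -0.92, adjusted p = 3.56e-06 by edgeR), whereas DTEC had 26.6 ± 1.54 CPM. Of 9 epithelial markers, 7 had a mean of at least 1 CPM in each of the 4 groups, and the lung lineage marker NKX2-1 was under 0.5 CPM in all of them. The sum of the epithelial markers lay between 10795 and 11397 CPM for untreated WT and was lower, between 6294 and 7279 CPM, for DTC. It lay between 9293 and 12163 CPM for DTEC and between 11485 and 12321 CPM for KO. The keratin genes KRT8 and KRT18 were at 4015 ± 195 and 2930 ± 124 CPM in untreated WT and at 1869 ± 158 and 1184 ± 92.2 CPM in DTC. EPCAM, KRT19 and SFTPB also had lower means in DTC, whereas those of NAPSA and NKX2-1 were higher. From untreated WT to DTC, KRT7 went from 1965 ± 88.4 to 2071 ± 239 CPM and CDH1 from 285 ± 6.06 to 298 ± 85.1 CPM. Of 6 fibroblast markers only COL1A1 reached a mean of 1 CPM, and COL1A2, COL3A1, DCN, LUM and PDGFRA were at 0 counts in untreated WT. The fibroblast markers summed to 7.79 to 8.83 CPM in untreated WT, 54.9 to 57.5 in DTC, 10.9 to 14.1 with DTEC and 13.2 to 14.8 with KO. Of 4 endothelial markers 2 or 3 reached 1 CPM, PECAM1 and CDH5 among them, and their sum ran from 42.1 CPM in DTC to 141.6 CPM in DTEC. The 6 leukocyte markers had 1 or 2 at that level, mainly CD68, and summed to between 25.9 and 55.3 CPM. The part of these markers in the results below was not tested. In RNA from whole cultures, fewer cells expressing a gene and less RNA per cell cannot be told apart. The choice of scaling shifted all genes together: with total counts in place of TMM the median log2 fold change over the tested genes moved by 0.35 in DTC, by 0.17 in DTEC and by -0.19 between them, and higher calls as a share of all calls went from 50.5% to 68.4% in DTC, from 49.7% to 63.7% in DTEC, from 51.9% to 37.4% for DTEC against DTC and from 64.1% to 78.8% in KO. Fold changes below are from TMM scaling, under which the median over all genes was 0.06, 0.02, -0.01 and -0.01.

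In DTC, TGFA, BTC and EGF rose, whereas EREG, HBEGF and ADAM17 fell. AREG, NRG1 and ADAM10 did not pass the test. That was 6 of the 9 tested members (66.7%), against 67.3% of all tested genes called in this comparison, 34.0% higher and 33.3% lower, so the share of members called was that of the transcriptome as a whole. Their median absolute log2 fold change was 1.18, against 0.75 over all tested genes. In DTEC, BTC, EGF and ADAM10 were above untreated WT and AREG, TGFA, HBEGF and NRG1 below it, 7 of 9 members (77.8%) against 52.3% of all tested genes, 26.0% higher and 26.3% lower. Between the treated groups all 9 tested members differed, 5 higher and 4 lower in DTEC than in DTC, where 55.4% of all tested genes were called, 28.8% higher and 26.6% lower. In KO, AREG, EREG and HBEGF fell and no member rose, 3 of 9 (33.3%) against 4.31% of all tested genes, 2.76% higher and 1.55% lower. Of the members not called lower in KO, BTC was higher at an unadjusted p under 0.05, and DESeq2 called 0 members higher. DTC, DTEC and KO were all compared with the same 3 untreated WT libraries.

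**Figure D1:**
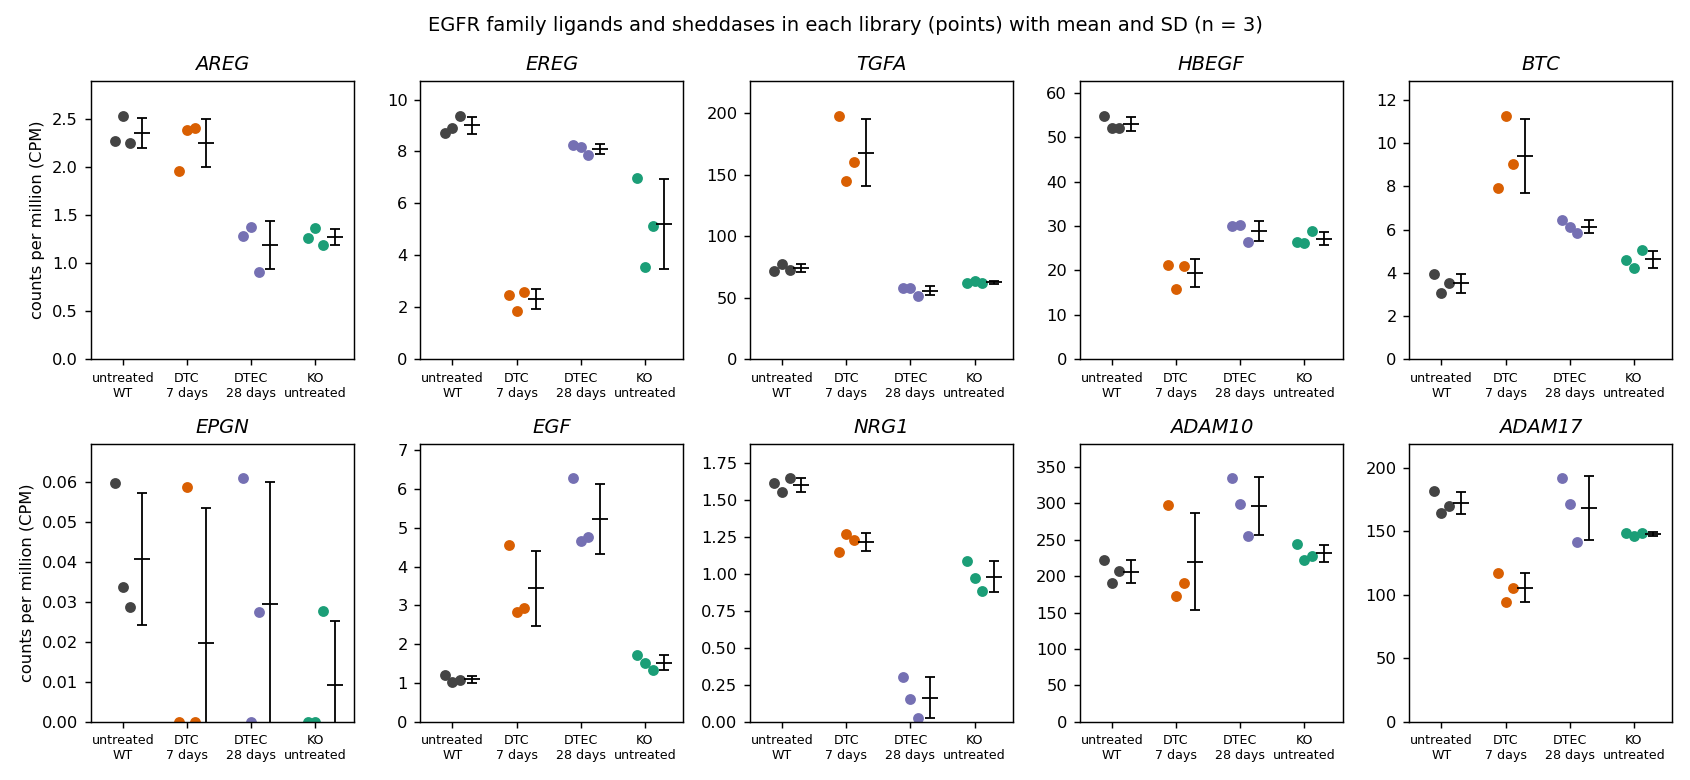
Level of each of the 10 genes in CPM (vertical axes, each starting at 0) in the 3 libraries of untreated WT, DTC, DTEC and KO, with points for libraries, horizontal bars for means and vertical bars for the SD. TGFA, BTC and EGF are higher and EREG, HBEGF and ADAM17 lower in all 3 DTC libraries than in any untreated WT library. NRG1 is likewise lower in all 3 DTC libraries, although it was not called. EPGN stays under 0.07 CPM throughout.

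TGFA encodes TGF-α (chr2:70447280-70554193, minus strand, GRCh38), a ligand of EGFR alone, and was among the most abundant ligand transcripts in these cells. Its level was 72.0, 77.7 and 72.6 CPM in untreated WT and 198, 145 and 161 CPM in DTC. It was 57.9, 57.5 and 51.3 CPM in DTEC and 61.7, 63.4 and 61.9 CPM in KO. All DTC libraries were therefore far above every other library, and the DTEC and KO libraries lay below those of untreated WT. TGFA rose 2.26-fold in DTC (log2 fold change 1.18, SE 0.112, adjusted p = 3.94e-07 by edgeR's quasi-likelihood test with Benjamini-Hochberg adjustment, as for every adjusted p below). DTC replicate 1 was the highest of the 3 libraries, and without it the log2 fold change was 1.08, still called. In DTEC the gene fell by 0.42 on the log2 scale (SE 0.111, adjusted p = 0.00618 by edgeR), a call that was lost with total-count scaling (adjusted p = 0.0772). From DTC to DTEC it fell by 1.59 (SE 0.113, adjusted p = 6.07e-08 by edgeR). In KO the difference was -0.25 (95% interval -0.49 to -0.01) and did not pass the adjusted threshold (adjusted p = 0.275 by edgeR), although no KO library reached an untreated WT library.

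HBEGF encodes heparin-binding EGF-like growth factor (chr5:140332843-140346631, minus strand), a ligand of EGFR and ERBB4 and a known target of signalling through ERK. It was the only member called lower in all 3 comparisons with untreated WT. Its libraries stood at 54.9, 52.1 and 52.1 CPM in untreated WT and at 21.3, 15.8 and 21.0 CPM in DTC. They stood at 29.9, 30.3 and 26.3 CPM in DTEC and at 26.4, 26.2 and 28.97 CPM in KO. The DTEC and KO libraries occupied overlapping ranges between those of DTC and those of untreated WT, with no untreated WT library near them. HBEGF fell by 1.45 in DTC (SE 0.118, adjusted p = 8.48e-08 by edgeR), by 0.88 in DTEC (SE 0.116, adjusted p = 2.37e-05) and by 0.96 in KO (SE 0.117, adjusted p = 0.000325). From DTC to DTEC it rose by 0.57 on the log2 scale (SE 0.118, adjusted p = 0.000892 by edgeR).

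EREG encodes epiregulin (chr4:74365143-74388751, plus strand), a ligand of EGFR and ERBB4. Untreated WT libraries held 8.72, 8.90 and 9.37 CPM and DTC libraries 2.47, 1.85 and 2.58 CPM. DTEC libraries were back at 8.25, 8.17 and 7.86 CPM, whereas KO libraries were spread over 6.98, 3.53 and 5.11 CPM. DTC was the low group, and KO was the group with the widest spread between cultures. EREG fell by 1.97 in DTC (SE 0.212, adjusted p = 1.44e-06 by edgeR), and from DTC to DTEC it rose 3.52-fold (log2 fold change 1.81, SE 0.212, adjusted p = 6.94e-06). DTEC against untreated WT did not pass the test (log2 fold change -0.15, 95% interval -0.57 to 0.27, adjusted p = 0.535 by edgeR). In KO, EREG fell by 0.79 (SE 0.1999, adjusted p = 0.0388 by edgeR). That call was lost in 6 of 15 alternatives, among them the omission of any 1 untreated WT library, of KO replicate 2 or of KO replicate 3, with an adjusted p of up to 0.166.

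AREG encodes amphiregulin (chr4:74445134-74455009, plus strand), a ligand of EGFR, and lies next to EREG on the chromosome. Its level was low in every group. Untreated WT libraries were at 2.27, 2.53 and 2.25 CPM and DTC libraries at 1.96, 2.38 and 2.40 CPM. DTEC libraries were at 1.28, 1.38 and 0.907 CPM and KO libraries at 1.26, 1.36 and 1.19 CPM. Untreated WT and DTC thus overlapped, and DTEC and KO formed a lower range that did not reach either. The DTC difference was -0.06 (95% interval -0.51 to 0.39, adjusted p = 0.812 by edgeR). AREG fell by 0.99 in DTEC (SE 0.221, adjusted p = 0.00177 by edgeR), and between DTC and DTEC it fell by 0.93 (SE 0.221, adjusted p = 0.00263). In KO it fell by 0.89 (SE 0.219, adjusted p = 0.0351 by edgeR), a call lost in 7 of 15 alternatives, among them the omission of any 1 of the 6 compared libraries, with an adjusted p of up to 0.160.

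Neighbouring ligand genes can be read against their upstream sequence. The 250 bases upstream of the RefSeq start (GRCh38.p14) are shown for EREG and AREG, which lie side by side and differed in DTC, for HBEGF, which was low in the 3 other groups, and for EGF, which was high in both treated groups. All run 5′ to 3′ on the strand of the gene, and capitals mark matches to the searched motifs on either strand, namely AP-1 (TGANTCA), the cAMP response element CRE (TGACGTCA), TEAD (GGAATG), ETS (CGGAAG), FOXO (GTAAACA), the TATA box (TATAAA) and SP1 (GGGCGG).
EREG, chr4:74364895-74365144, plus strand: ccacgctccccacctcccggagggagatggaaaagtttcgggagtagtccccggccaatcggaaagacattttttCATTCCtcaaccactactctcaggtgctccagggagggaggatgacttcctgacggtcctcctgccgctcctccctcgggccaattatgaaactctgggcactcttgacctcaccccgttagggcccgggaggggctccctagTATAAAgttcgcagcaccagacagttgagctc
AREG, chr4:74444886-74445135, plus strand: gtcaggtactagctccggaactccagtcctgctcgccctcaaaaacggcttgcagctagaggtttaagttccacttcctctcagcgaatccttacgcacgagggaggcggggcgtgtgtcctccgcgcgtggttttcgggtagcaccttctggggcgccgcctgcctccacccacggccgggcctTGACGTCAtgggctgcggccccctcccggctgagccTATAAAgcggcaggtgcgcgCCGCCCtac
HBEGF, chr5:140346604-140346853, minus strand: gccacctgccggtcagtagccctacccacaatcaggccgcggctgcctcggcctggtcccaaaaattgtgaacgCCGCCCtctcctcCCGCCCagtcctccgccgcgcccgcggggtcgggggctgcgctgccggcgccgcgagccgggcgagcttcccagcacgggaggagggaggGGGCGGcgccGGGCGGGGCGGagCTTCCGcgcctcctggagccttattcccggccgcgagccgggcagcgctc
EGF, chr4:109912633-109912882, plus strand: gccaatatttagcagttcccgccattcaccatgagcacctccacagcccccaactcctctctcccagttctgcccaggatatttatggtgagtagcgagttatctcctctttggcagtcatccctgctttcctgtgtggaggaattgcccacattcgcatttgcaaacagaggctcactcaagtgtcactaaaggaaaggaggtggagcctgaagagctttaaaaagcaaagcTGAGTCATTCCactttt

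Counted back from the start, the EREG window had a TEAD match 175 to 170 bases upstream and a TATA box at 32 to 27. The AREG window had the CRE match at 65 to 58, a TATA box at 29 to 24 and an SP1 match at 9 to 4. The HBEGF window had an ETS match at 50 to 45 and 5 SP1 matches, of which those at 63 to 58 and 58 to 53 share a base. The EGF window had an AP-1 match at 17 to 11 that overlaps a TEAD match at 12 to 7. Among 34943 windows of the same length in the RefSeq table, 1.63% held the CRE, 6.59% the AP-1, 11.9% the TEAD, 10.8% the TATA, 16.4% the ETS, 2.98% the FOXO and 42.5% the SP1 letters. The printed windows reach into the GENCODE 29 gene by 28 bases for HBEGF, by 2 each for EREG and AREG and by 0 for EGF. The windows of TGFA, with all 250 bases inside the gene, and of BTC, with 163, are not printed for that reason, and they had 3 SP1 matches and 1 FOXO match. NRG1 was left out of the search, and windows were taken for 9 of the 10 members. The matches describe letters only, and no binding was measured.

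BTC encodes betacellulin (chr4:74744759-74794686, minus strand), a ligand of EGFR and ERBB4 and a known ADAM10 substrate. It was highest in DTC. Untreated WT libraries were at 3.94, 3.07 and 3.52 CPM and DTC libraries at 7.91, 11.3 and 9.03 CPM. DTEC libraries were at 6.43, 6.11 and 5.83 CPM and KO libraries at 4.60, 4.24 and 5.03 CPM. The 4 groups did not overlap with each other, in the order DTC, DTEC, KO and untreated WT. BTC rose 2.68-fold in DTC (log2 fold change 1.42, SE 0.161, adjusted p = 2.39e-06 by edgeR) and 1.74-fold in DTEC (log2 fold change 0.80, SE 0.162, adjusted p = 0.000855), and from DTC to DTEC it fell by 0.62 (SE 0.156, adjusted p = 0.00380). The KO difference was 0.40 (95% interval 0.05 to 0.75) and missed the adjusted threshold (adjusted p = 0.227 by edgeR).

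EGF encodes the large precursor of epidermal growth factor (chr4:109912884-110012266, plus strand). Its level was near 1 CPM before treatment and was highest after 28 days. Untreated WT libraries held 1.19, 1.01 and 1.07 CPM, DTC libraries 4.56, 2.83 and 2.93 CPM, DTEC libraries 6.27, 4.66 and 4.75 CPM and KO libraries 1.72, 1.52 and 1.33 CPM. DTEC libraries were all above DTC libraries, by a margin at its smallest of 4.66 against 4.56 CPM. EGF rose 3.13-fold in DTC (log2 fold change 1.65, SE 0.236, adjusted p = 2.42e-05 by edgeR) and 4.78-fold in DTEC (log2 fold change 2.26, SE 0.235, adjusted p = 2.71e-06). The step from DTC to DTEC (log2 fold change 0.61, SE 0.216, adjusted p = 0.0272 by edgeR) was lost in 7 of 15 alternatives, among them without DTC replicate 2, DTC replicate 3 or DTEC replicate 1, with an adjusted p of up to 0.137. In KO the difference was 0.47 (95% interval -0.05 to 1.00, adjusted p = 0.356 by edgeR).

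NRG1 encodes neuregulin 1 (chr8:31639386-32767959, plus strand), whose products bind ERBB3 and ERBB4 but not EGFR. Its counts were few: 54, 46 and 57.48 estimated counts in untreated WT, 34, 43.48 and 41.98 in DTC, 10.18, 3.87 and 1 in DTEC and 31.43, 30 and 32.01 in KO. DTEC was the low group, with 1 of its libraries under the floor of 3 counts. As CPM the means were 1.60 ± 0.0471, 1.22 ± 0.0599, 0.162 ± 0.139 and 0.981 ± 0.102. NRG1 fell by 3.30 in DTEC (SE 0.452, adjusted p = 3.19e-05 by edgeR) and by 2.91 from DTC to DTEC (SE 0.456, adjusted p = 9.98e-05). The sizes rest on few counts: without DTEC replicate 1 they were -4.21 and -3.84, without DTEC replicate 3 they were -2.76 and -2.40, and both stayed called. The DTC difference was -0.40 (95% interval -1.17 to 0.38, adjusted p = 0.345 by edgeR) and that of KO -0.71 (95% interval -1.50 to 0.08, adjusted p = 0.358). Only 5 of its 12 deposited values were whole numbers, as arises where an estimator divides reads among features.

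EPGN encodes epigen (chr4:74308473-74315307, plus strand), another EGFR ligand. Its mean was 0.0408 CPM or less in each group, under the floor of 3 counts, and no fold was computed.

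ADAM17, also known as TACE (chr2:9488486-9556732, minus strand), fell in DTC and did not pass the test in DTEC. The untreated WT libraries stood at 181, 165 and 170 CPM, the DTC libraries at 117, 94.0 and 105 CPM, the DTEC libraries at 191, 171 and 142 CPM and the KO libraries at 149, 146 and 149 CPM. DTC was the low group, and DTEC surrounded untreated WT. ADAM17 fell by 0.71 in DTC (SE 0.115, adjusted p = 8.56e-05 by edgeR), to 61.3% of the untreated WT level, and rose by 0.67 on the log2 scale from DTC to DTEC (SE 0.115, adjusted p = 0.000213). With total-count scaling the DTC difference was -0.35 and still called. DTEC against untreated WT was at -0.03 (95% interval -0.28 to 0.21, adjusted p = 0.827 by edgeR), and KO at -0.22 (95% interval -0.47 to 0.03, adjusted p = 0.364). None of the 12 deposited ADAM17 values was a whole number, so the same caution applies to its counts.

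ADAM10 (chr15:58588807-58749978, minus strand) was abundant in all groups and was highest in DTEC. Untreated WT libraries were at 222, 190 and 207 CPM, DTC libraries at 297, 173 and 191 CPM, DTEC libraries at 334, 299 and 254 CPM and KO libraries at 245, 222 and 228 CPM. DTC replicate 1, which also differed most within DTC over all genes, stood above the other DTC libraries and above every untreated WT library. DTC replicate 2 was below all untreated WT libraries. The DTC difference was 0.09 (95% interval -0.27 to 0.46, adjusted p = 0.634 by edgeR) and -0.15 without DTC replicate 1. With total-count scaling it was 0.45 and passed (adjusted p = 0.0283 by edgeR). ADAM10 rose 1.44-fold in DTEC (log2 fold change 0.52, SE 0.169, adjusted p = 0.0184 by edgeR), which was lost without untreated WT replicate 2 (adjusted p = 0.0688) or without DTEC replicate 1 (adjusted p = 0.0699). The step from DTC to DTEC (log2 fold change 0.43, SE 0.169, adjusted p = 0.0443 by edgeR), with overlapping libraries, was lost in 10 of 15 alternatives, with an adjusted p of up to 0.249. In KO the difference was 0.17 (95% interval -0.20 to 0.53, adjusted p = 0.679 by edgeR).

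**Figure D2:**
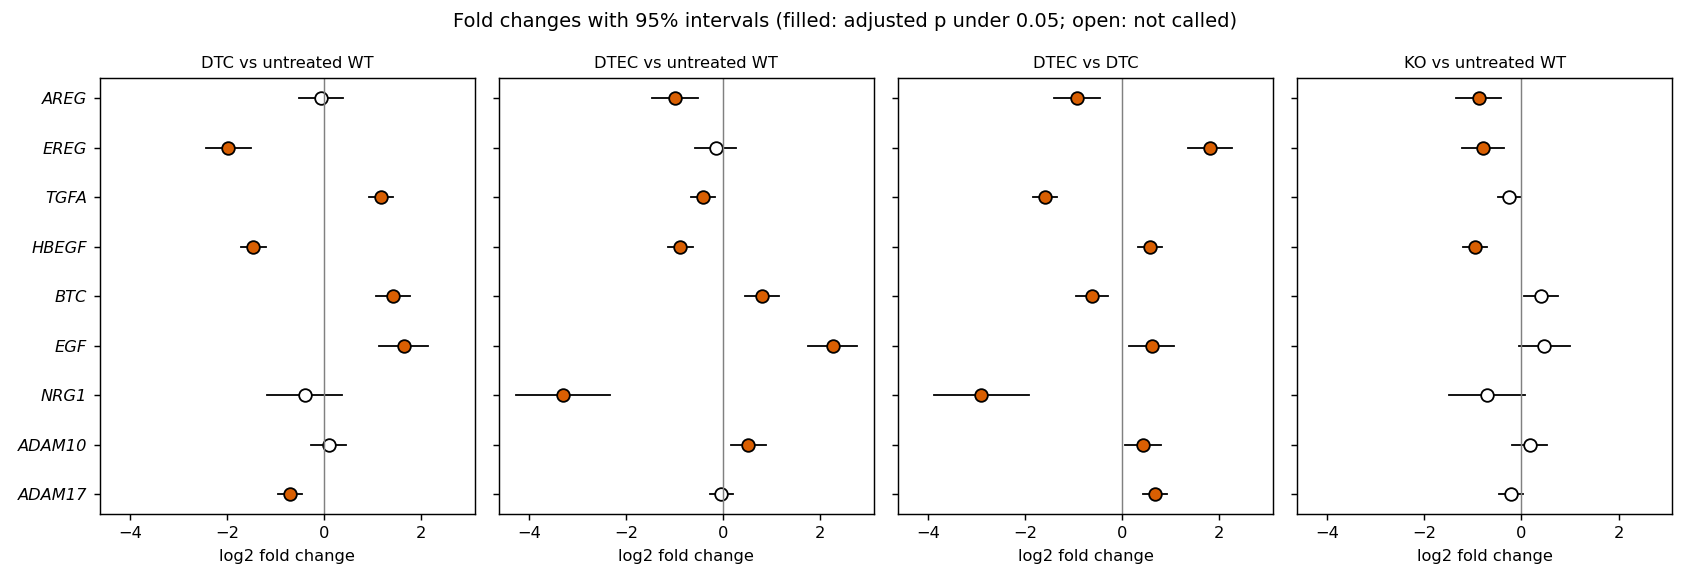
Log2 fold change (horizontal axis) of the 9 tested genes in the 4 comparisons, with bars for the 95% interval and filled points for an adjusted p under 0.05. NRG1 has the widest intervals, HBEGF is filled and below 0 in all 3 comparisons with untreated WT, and all 9 points are filled for DTEC against DTC.

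Levels of different genes were compared per length, as CPM per kilobase of the union of GENCODE 29 exons. The orders, sums and shares per kilobase depend on that length, and the lengths of the transcripts present were not measured. In untreated WT the order was HBEGF at 17.6 ± 0.534, ADAM17 at 16.0 ± 0.788, TGFA at 14.9 ± 0.627, ADAM10 at 12.7 ± 0.974, EREG at 1.57 ± 0.0588, AREG at 1.43 ± 0.0947, BTC at 1.25 ± 0.155, EGF at 0.178 ± 0.0153 and NRG1 at 0.141 ± 0.00416 CPM per kilobase, with EPGN last. ADAM17 and TGFA overlapped, as did EREG with AREG and AREG with BTC. HBEGF and TGFA were thus far above the other ligands. In DTC the first place passed to TGFA at 33.8 ± 5.50, followed by ADAM10, ADAM17, HBEGF at 6.42 ± 1.02 and BTC at 3.34 ± 0.608, and EREG at 0.402 ± 0.0683 lay below EGF at 0.561 ± 0.159. In DTEC the order was led by ADAM10 at 18.3 ± 2.47 and ADAM17 at 15.6 ± 2.33, which overlapped, and NRG1 had the lowest mean, with libraries overlapping those of EPGN. The KO order was ADAM10, ADAM17, TGFA, HBEGF, BTC, EREG, AREG, EGF, NRG1 and EPGN, with ADAM10 overlapping ADAM17 and EREG overlapping AREG.

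Added over the 7 ligands that bind EGFR, ligand transcripts came to 37.2, 37.3 and 36.3 CPM per kilobase in untreated WT. The sum was 52.1, 40.7 and 44.9 in DTC, 27.1, 26.8 and 23.8 in DTEC and 25.1, 24.6 and 25.7 in KO. DTC libraries were above all others, and DTEC and KO libraries shared a range below untreated WT. TGFA made up 73.4% ± 2.69 of the sum in DTC, against 40.4% ± 1.52 in untreated WT, 43.2% ± 0.172 in DTEC and 49.97% ± 1.70 in KO. HBEGF went the other way, with 47.6% ± 1.28 in untreated WT, down to 14.0% ± 1.35 in DTC, and with 36.9% ± 0.493 in DTEC and 35.8% ± 1.34 in KO. Without TGFA the sum was lower in DTC (12.1 ± 0.532 CPM per kilobase) than in untreated WT (22.0 ± 0.608), and it was 14.7 ± 1.07 in DTEC and 12.6 ± 0.684 in KO. BTC and EGF, which rose in both treated groups, made up 8.39% ± 0.295 and 3.29% ± 0.469 of the DTEC sum, against 3.37% ± 0.422 and 0.482% ± 0.0404 in untreated WT.

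**Figure D3:**
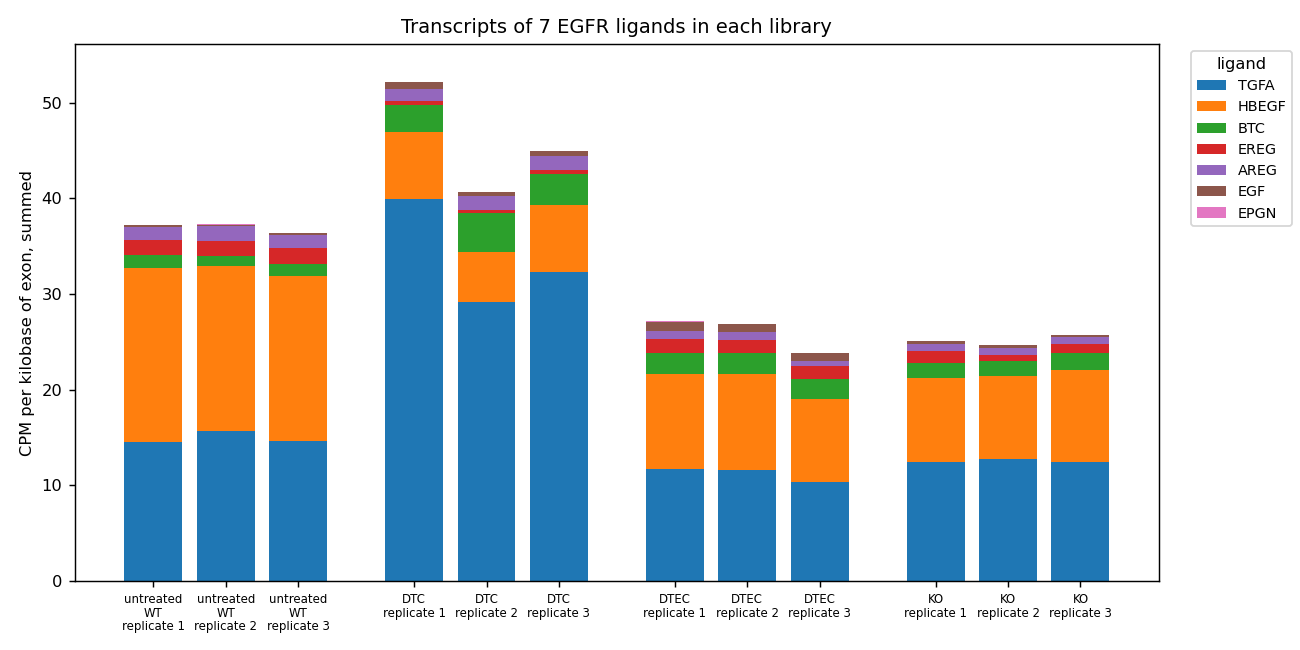
Stacked bars of the 7 EGFR ligand transcripts in CPM per kilobase of exon (vertical axis, from 0), 1 bar per library, grouped as untreated WT, DTC, DTEC and KO. The TGFA segment fills 73.4% of the DTC bars on average, and the HBEGF segment shrinks from 47.6% in untreated WT to 14.0% in DTC.

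Ratios between members within a library do not depend on the scaling. TGFA over HBEGF, per kilobase, was 0.798, 0.907 and 0.847 in untreated WT and 5.64, 5.56 and 4.65 in DTC. In DTEC it was 1.18, 1.15 and 1.18, and in KO 1.42, 1.47 and 1.299. The balance between the 2 leading ligands was thus shifted towards TGFA in every library outside untreated WT, and furthest in DTC. The crossing of 1 rests on the exon lengths, 4963 bases for TGFA and 3018 for HBEGF. Before division by length, TGFA was above HBEGF in untreated WT too, at 72.0, 77.7 and 72.6 against 54.9, 52.1 and 52.1 CPM. ADAM10 over ADAM17 was 0.813, 0.768 and 0.808 in untreated WT, 1.69, 1.22 and 1.21 in DTC, 1.16, 1.16 and 1.20 in DTEC and 1.10, 1.01 and 1.02 in KO. Every untreated WT library had less ADAM10 than ADAM17 per kilobase, and all others had more. This crossing also rests on the exon lengths, 16168 bases for ADAM10 and 10750 for ADAM17. Before division by length, ADAM10 was above ADAM17 in untreated WT too, at 222, 190 and 207 against 181, 165 and 170 CPM. Only the shift of the ratio between groups is free of the lengths.

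EREG, AREG, BTC and EPGN form a cluster of 486 kb on chromosome 4 (chr4:74308473-74794686), with no other protein-coding gene inside it. The cluster members did not change in 1 direction. EREG was called lower and BTC higher in DTC, AREG was called lower in DTEC and BTC higher, and EREG and AREG were called lower in KO. Of the 10 nearest protein-coding neighbours, 5 on each side, 7 were tested. In DTC 4 were called higher and 1 lower, where 67.3% of all tested genes were called. In DTEC 1 was called higher and 3 lower, where 52.3% of all tested genes were called. In KO 0 were called by edgeR (0 at an unadjusted p under 0.05, 0 by DESeq2), against 4.31% of all tested genes. PPBP could not be called there, with 0 counts in every KO and untreated WT library, and ODAPH had 3, 0 and 2 counts in KO. The chemokine gene PPBP was at 0 counts in all untreated WT libraries and at 11.6, 18.7 and 19.1 CPM in DTC, at least 178-fold higher as computed against the floor of 3 counts per library, and at 2.44, 1.18 and 0.247 CPM in DTEC. On the other side, ODAPH went from 0.0848 ± 0.0738 CPM to 6.38 ± 0.798 CPM in DTC (log2 fold change 6.21, SE 0.521, adjusted p = 1.13e-07 by edgeR). It was at 0.251 ± 0.0897 CPM in DTEC. The size of the DTC change rests on 4.11, 4 and 0.2 estimated counts in untreated WT, near the floor. Between the cluster and these, MTHFD2L fell by 0.81 in DTC (adjusted p = 0.00457 by edgeR) and by 0.56 in DTEC (adjusted p = 0.0429). PARM1 was at 52.6 ± 3.32 CPM in untreated WT and 55.8 ± 14.4 CPM in DTC and fell by 0.44 in DTEC (adjusted p = 0.0188 by edgeR). RCHY1 fell by 0.50 in DTEC (adjusted p = 0.0117 by edgeR). THAP6 rose by 0.52 on the log2 scale in DTC (adjusted p = 0.00306 by edgeR), and CXCL2, at 0.111 ± 0.0411 CPM in untreated WT and 0.394 ± 0.149 in DTC, by 1.79 (adjusted p = 0.0149). CXCL5, CXCL3 and CDKL2 were not tested.

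The receptors changed in different directions. EGFR, the receptor of 7 of the ligands and the target of erlotinib, was at 1416, 1544 and 1543 CPM in untreated WT and at 870, 457 and 510 CPM in DTC. It was at 1112, 1079 and 865 CPM in DTEC and at 1205, 1142 and 1120 CPM in KO. EGFR fell by 1.29 in DTC (SE 0.192, adjusted p = 3.94e-05 by edgeR) and by 0.56 in DTEC (SE 0.190, adjusted p = 0.0236), and the KO difference was -0.38 (95% interval -0.78 to 0.03). ERBB3, the receptor of neuregulins that signals through its partners, was at 72.4 ± 4.28 CPM in untreated WT and rose in DTC (110.8 ± 17.1 CPM, log2 fold change 0.61, adjusted p = 0.000151 by edgeR), in DTEC (275 ± 3.59 CPM, 1.93, adjusted p = 1.24e-08) and in KO (97.7 ± 3.77 CPM, 0.43, adjusted p = 0.0346). ERBB2, the shared partner without a ligand of its own, rose by 0.52, 1.10 and 0.48 on the log2 scale in the same comparisons (adjusted p = 0.000955, 2.53e-06 and 0.0260 by edgeR). ERBB4 had 3 counts or fewer in every library. In DTEC the ligand NRG1 was therefore at its lowest and its receptor ERBB3 at its highest. Per kilobase, EGFR transcripts exceeded the summed transcripts of its ligands in every library of untreated WT, DTEC and KO, with means of 119.9 ± 5.88, 81.4 ± 10.7 and 92.3 ± 3.50 CPM per kilobase. In DTC, EGFR was at 69.5, 36.5 and 40.7 CPM per kilobase against ligand sums of 52.1, 40.7 and 44.9. Per kilobase, EGFR was thus the higher in replicate 1 and the lower in replicates 2 and 3. The order in replicates 2 and 3 rests on the division by exon length. In CPM, EGFR was there at 457 and 510, and TGFA, the most abundant ligand, at 145 and 161.

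Other neuregulins were few. NRG2 had 32, 35 and 45 estimated counts in untreated WT, 2, 7 and 1 in DTC, 7, 33 and 18 in DTEC and 21, 27 and 50 in KO. It fell by 3.44 in DTC (SE 0.669, adjusted p = 0.000391 by edgeR) and did not pass in DTEC, where its libraries overlapped untreated WT. NRG4 was not called by edgeR in any of the 4 comparisons, nor below an unadjusted p of 0.05, and NRG3 was at 0 counts in all 12 libraries. NRG1 and NRG2 thus had their lowest values in different groups, NRG2 in DTC and NRG1 in DTEC.

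Partners of the sheddases were taken from fixed lists. Over all tested genes, 67.3% were called in DTC, 52.3% in DTEC, 55.4% for DTEC against DTC and 4.31% in KO. Counts in this list and in those below can be read against these shares. Among 6 ADAM17 partners and proprotein convertases, 2 rose and 2 fell in DTC. RHBDF1 and RHBDF2, the inactive rhomboids that carry ADAM17 to the cell surface, moved in opposite directions, RHBDF1 from 8.14 ± 2.12 CPM up to 27.0 ± 7.06 CPM (a log2 fold change of 1.73, adjusted p = 1.26e-05 by edgeR) and RHBDF2 from 26.8 ± 5.26 to 13.9 ± 1.48 CPM (-0.94, adjusted p = 3.57e-05). FRMD8, which stabilises that complex, rose by 0.61 on the log2 scale (adjusted p = 0.000488 by edgeR), and FURIN, a convertase that removes the ADAM prodomain, fell by 0.35 (adjusted p = 0.00878). TIMP3, the tissue inhibitor that blocks ADAM17, was at 752 ± 8.38 CPM in untreated WT and rose in DTEC to 1273 ± 180 CPM (log2 fold change 0.76, adjusted p = 0.000252 by edgeR). Also in DTEC, RHBDF2 fell by 0.68 (adjusted p = 0.000947 by edgeR) and RHBDF1 rose by 0.62 on the log2 scale (adjusted p = 0.0333), making 2 of 6 higher and 1 lower. In KO 0 of the 6 were called by edgeR or DESeq2, with 1, PCSK7, lower at an unadjusted p under 0.05.

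The TspanC8 tetraspanins, which escort ADAM10, showed 1 of 6 higher and 2 lower in DTC, and 2 higher and 2 lower in DTEC. TSPAN14, at 293 ± 6.22 CPM in untreated WT, fell by 0.66 in DTC (adjusted p = 6.97e-05 by edgeR). TSPAN5 fell by 0.55 in DTC (adjusted p = 0.00267 by edgeR), and TSPAN10, at 0.631 ± 0.0503 CPM in untreated WT, rose by 2.59 on the log2 scale in DTC (adjusted p = 8.17e-07) and by 2.04 in DTEC (adjusted p = 2.03e-05). TSPAN15 rose by 0.69 in DTEC (adjusted p = 5.03e-05 by edgeR), whereas TSPAN33 fell by 1.26 (adjusted p = 0.000258) and TSPAN17 by 0.53 (adjusted p = 0.00642). In KO 0 of the 6 were called by edgeR or DESeq2, with 1, TSPAN10, higher at an unadjusted p under 0.05.

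Among 8 other membrane sheddases, 3 rose and 3 fell in DTC, 2 rose and 2 fell in DTEC, and 2 rose and 1 fell in KO. The shares of all tested genes called were 67.3%, 52.3% and 4.31%. MMP14, a membrane-type matrix metalloprotease, was at 1.85, 2.12 and 0.836 CPM in untreated WT and at 38.7, 35.1 and 36.7 CPM in DTC. It was at 6.49, 6.84 and 7.15 CPM in DTEC and at 7.97, 8.67 and 7.88 CPM in KO, so all other groups were above untreated WT. The log2 fold changes were 4.53 in DTC (adjusted p = 6.45e-10 by edgeR), 2.10 in DTEC (adjusted p = 2.53e-06) and 2.36 in KO (adjusted p = 2.27e-05). RHBDL2, a rhomboid protease, rose by 2.51 in DTC (adjusted p = 1.58e-06 by edgeR) and by 2.97 in DTEC (adjusted p = 8.39e-07), and ADAM15 fell by 1.32 (adjusted p = 1.46e-07) and by 0.61 (adjusted p = 0.000373). ADAM8 rose by 1.07 in DTC (adjusted p = 0.000515 by edgeR) and fell by 0.93 in KO (adjusted p = 0.0315), where MMP15 rose by 0.57 (adjusted p = 0.00818).

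Genes that report signalling below EGFR are given for comparison with the ligands. Of 14 genes of ERK output, 11 were lower in DTC and 0 higher (0 at an unadjusted p under 0.05 and 0 by DESeq2), with a median log2 fold change of -2.02 against 0.06 over all tested genes. Of all tested genes, 33.3% were called lower and 34.0% higher there. DUSP6, a phosphatase of ERK, went from 85.7 ± 1.78 CPM down to 2.62 ± 0.644 CPM (a log2 fold change of -5.04, adjusted p = 1.05e-11 by edgeR), and SPRY4, an inhibitor of the pathway, from 84.7 ± 7.14 to 2.70 ± 0.493 CPM (-4.97, adjusted p = 2.78e-11). From DTC to DTEC 13 of the 14 rose and 1 fell, DUSP6 reaching 123 ± 4.93 CPM, and against untreated WT 2 were higher and 7 lower in DTEC, with a median of -0.08. EREG, low in DTC and near its starting level in DTEC, and HBEGF, which rose only in part, were the members with a minimum in DTC together with ADAM17. TGFA and BTC had their maximum there. In KO 1 of the 14 was called, FOSL1, which fell by 0.76 (adjusted p = 0.00452 by edgeR).

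Of 6 receptor inhibitors, 2 rose and 4 fell in DTC, where 67.3% of all tested genes were called. CBLB, a ubiquitin ligase that tags EGFR for degradation, rose by 2.20 on the log2 scale (adjusted p = 7.99e-09 by edgeR). LRIG1, at a low level of 0.299 ± 0.0825 CPM in untreated WT and 1.43 ± 0.626 CPM in DTC, rose by 2.24 (SE 0.487, adjusted p = 0.000947 by edgeR). CBL fell by 1.14 (adjusted p = 0.000326 by edgeR) and LRIG3 by 1.56 (adjusted p = 3.72e-07). In DTEC 3 rose and 2 fell. In KO 0 were called by edgeR or DESeq2, with 1, LRIG1, higher at an unadjusted p under 0.05. Of 8 YAP-TEAD targets, 6 rose and 1 fell in DTC, ANKRD1 from 3.04 ± 0.304 to 163.7 ± 8.62 CPM (a log2 fold change of 5.75, adjusted p = 1.69e-09 by edgeR) and CCN1 from 89.6 ± 2.89 to 348 ± 16.0 CPM (1.96, adjusted p = 5.63e-10). From DTC to DTEC 5 of the 8 fell and 2 rose. In KO edgeR called 0 of the 8, and AMOTL2 was higher at an unadjusted p under 0.05 and by DESeq2.

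**Figure D4:**
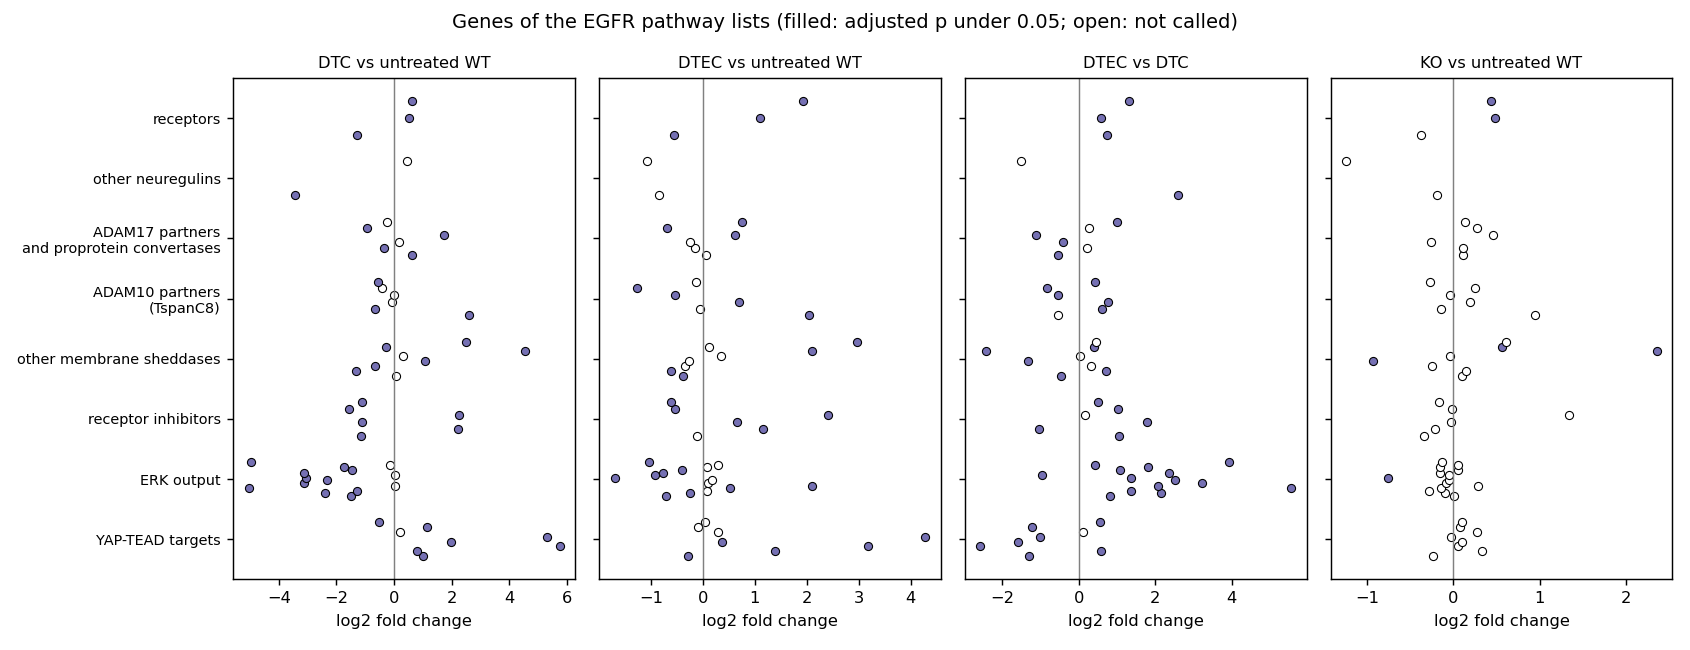
Log2 fold change (horizontal axes, which differ in range) of the tested genes in 8 lists around the ligands and sheddases, in the 4 comparisons, with filled points for an adjusted p under 0.05. The ERK output genes lie to the left in DTC, where 11 of 14 are called lower, and to the right for DTEC against DTC, where 13 of 14 are called higher.

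The genes whose log2 CPM followed a member most closely over the 12 libraries were sought among 9800 tested genes with a mean of at least 10 CPM. The 12 points are 4 groups of 3 cultures, so the coefficients mainly describe the order of the 4 group means. TGFA was followed by GOSR2 (Pearson r = 0.991) and by AJUBA (r = 0.991). GOSR2 stood at 55.9 ± 2.25 CPM for untreated WT, 89.0 ± 8.48 for DTC, 46.6 ± 0.711 for DTEC and 48.3 ± 0.410 for KO. AJUBA stood at 31.8 ± 2.59, 63.9 ± 5.96, 26.0 ± 3.05 and 27.0 ± 0.350 CPM in the same groups. AJUBA is on the YAP-TEAD list, where other genes had other orders. CCN1, CCN2, ANKRD1 and LATS2 also had their highest mean in DTC. AMOTL2 was highest in DTEC, at 191 ± 7.34 CPM, and so was the mean of CRIM1. TEAD1 was called lower in DTC by edgeR but not by DESeq2, and its DTC libraries overlapped those of untreated WT. HBEGF was followed by MTMR2 (r = 0.972) and LPIN1 (r = 0.958), EREG by PTGR3 (r = 0.967) and MOCOS (r = 0.959), and AREG by TIMM23B (r = 0.944) and B3GALNT1 (r = 0.923). For BTC the closest were MB (r = 0.979) and ZNF627 (r = 0.976), and for EGF they were MAN1A1 (r = 0.986) and FAM210B (r = 0.985). ADAM17 was followed by SPART (r = 0.987) and RFFL (r = 0.986), and ADAM10 by AHCYL2 (r = 0.972) and KIAA0232 (r = 0.965). NRG1 and EPGN, with means under 1 CPM, were left out.

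In KO every one of the 9 tested members had its 3 libraries wholly on 1 side of the untreated WT libraries, while 3 of the 9 were called by edgeR. Over all tested genes, 35.7% had KO libraries that did not overlap those of untreated WT, 15.8% higher and 19.9% lower. Of the members, AREG, EREG, TGFA, HBEGF, NRG1 and ADAM17 lay below and BTC, EGF and ADAM10 above. The median absolute log2 fold change of the 9 was 0.47, against 0.18 over all tested genes. HBEGF was the member with the smallest adjusted p, and its call held in all 15 alternatives. The count of 3 called members was 1 or 2 when any 1 of the 6 compared libraries was left out. It was 5 when untreated WT and KO were fitted without the other groups, which added TGFA (adjusted p = 0.0198 by edgeR) and ADAM17 (adjusted p = 0.0216). Calls over all genes moved the same way, from 738 to between 321 and 426 with 1 library left out and to 2656 with the 2 groups alone.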

How the data were processed

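Polyadenylated RNA of 12 cultures was sequenced from a stranded library kit, per the labels' protocols. The authors deposited 1 table of expected counts, estimated per gene and not scaled to depth. The submitters' processing notes name RSEM 1.3.1, Bowtie2 2.5.2, DESeq2 1.40.2 and GRCh38 without their roles, and the annotation release is not given in the sources used here. Coordinates and exon lengths are those of GENCODE 29. Values were rounded and fitted in R 4.3.3 with edgeR 4.0.16 (TMM scaling, filterByExpr by group, robust quasi-likelihood F test, all 12 libraries in 1 fit with 8 residual degrees of freedom). Benjamini-Hochberg adjustment ran over 17115 genes, with calls at an adjusted p under 0.05. Intervals are 95%. The 15 alternatives per comparison were other scalings (total counts alone, RLE, upper quartile), no count filter, a mean count of at least 50, a replicate block, no robust option, DESeq2 1.42.0, the compared groups alone, and omission of each of 6 libraries. All 10 members were named in each comparison, together with up to 4 called genes per list with the largest change, the cluster's neighbours and the 2 genes most like each member. The members, the lists and this rule were chosen with earlier results of these data known. The fit was tested on simulated data. Floors cover counting error only, since reads carried no molecular identifiers.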

Additional observations from a re-analysis of the deposited data

Results flagged for a closer look

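For all 9 tested members the effect of erlotinib differed between 7 and 28 days, by the direct contrast of DTEC with DTC in edgeR. In that contrast 55.4% of all tested genes were called. The count of members was 7 to 9 when 1 library was left out and 6 to 9 with the other settings. The differences, as the 28-day log2 fold change against untreated WT minus the 7-day one, were -0.93 for AREG, 1.81 for EREG, -1.59 for TGFA, 0.57 for HBEGF, -0.62 for BTC, 0.61 for EGF, -2.91 for NRG1, 0.43 for ADAM10 and 0.67 for ADAM17. Those of EGF and ADAM10 did not hold in all alternatives. TGFA is the member whose libraries were above untreated WT at 7 days and below it at 28 days. Time in drug and separate culture cannot be told apart in this design.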

How the results depend on the processing

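Of 25 called values of members, 19 kept their call in every alternative run, 6 lost it in at least 1 and 0 changed sign. Those 6 were TGFA and ADAM10 in DTEC, EGF and ADAM10 between DTC and DTEC, and AREG and EREG in KO. Of 11 values not called, 4 changed sign in some alternative. AREG in DTC was 0.29 with total counts alone, 0.23 with upper quartile scaling, 0.12 with a mean count of at least 50 and -0.0707 to 0.0637 when 1 library was left out. ADAM10 in DTC was -0.15 to 0.30 when 1 library was left out. EREG in DTEC was 0.0149 with total counts alone. ADAM17 in DTEC was 0.14 with total counts alone, 0.0807 with upper quartile scaling, 0.0376 with a mean count of at least 50 and -0.12 to 0.0687 when 1 library was left out. In KO, 738 genes were called, against 1147 with no count filter and 1113 with DESeq2. The count was 2656 with the compared groups alone and 321 to 426 when 1 library was left out, both with fewer libraries. The cause of these differences was not tested. The 3 members called in KO became 5 with the compared groups alone and 1 to 2 when 1 library was left out. With the replicate number as a block, 6, 7, 9 and 3 members were called in DTC, DTEC, DTEC against DTC and KO, as without it, and 11775, 9255, 9732 and 887 genes in all. The numbers share a label only: same-numbered libraries had deviations correlated at -0.03 to 0.18, with 4 of 18 pairs over 0.1. NRG1 has no value with a mean count of at least 50. Low counts limit AREG, EGF, NRG1 and EPGN.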
